A study of Mus musculus with 24 samples.

Results

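The Serpinb6 and Serpinb9 genes of the mouse form a cluster of protease inhibitor genes on chromosome 13, and their RNA was followed here through 24 libraries of preimplantation embryos. The members are the 10 genes Serpinb6a, Serpinb6b, Serpinb6c, Serpinb9, Serpinb9b, Serpinb9c, Serpinb9d, Serpinb9e, Serpinb9f and Serpinb9g, of 55471 genes in the deposited counts. They were chosen by their counts across the 6 groups of libraries, so the levels, folds and p-values below describe the choice and support nothing on their own. Each library was made from a pool of 10 embryos, and there were 4 libraries of each genotype at each of 2 stages, L2C (the late 2-cell stage in the usual abbreviation) and morula. The genotypes were wild type (WT, with NC in the titles), Ttf1 knockout and Zfp622 knockout. The design text gives the hybrid strain B6D2F1 for the zygotes used for knockouts. The cell line entry of the samples counts upward from that name and was not used. That WT embryos had the same strain is assumed here. Ttf1 encodes a termination factor of RNA polymerase I, and Zfp622 a zinc finger protein. For the knockouts, zygotes received Cas9 protein at 100 ng/µL with 3 guide RNAs at 50 ng/µL each, so every embryo was edited on its own and a pool can hold cells with different or no edits. Whether WT zygotes were injected is not given in the sources used here. The labels do not say that pools came from separate collections, so p-values measure only the spread between these libraries.

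Clade B serpins are intracellular inhibitors that trap a serine or cysteine protease in a covalent complex through an exposed reactive loop. Serpinb9 blocks granzyme B, the killing protease of cytotoxic lymphocytes, and Serpinb9b blocks granzyme M. Serpinb6a inhibits cathepsin G and related proteases and is needed for hearing in the mouse, and Serpinb6b blocks granzyme A. The remaining genes arose by local duplication in rodents, where a single human SERPINB6 and a single SERPINB9 have expanded into many copies, and most have no settled target. At the stages studied the embryonic genome has just taken over from maternal RNA, and the cells are approaching the first choice between trophectoderm and inner cell mass.

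On GRCm38 the 10 genes lie between positions 32965209 and 34002794 of chromosome 13, a span of 1037.6 kb that also holds 26 other annotated genes. Serpinb6b opens the cluster at chr13:32965209-32979067 on the plus strand. Serpinb9 follows at chr13:33003250-33017957 and Serpinb9b at chr13:33027416-33041884, both on the plus strand. Serpinb9c to Serpinb9g fill the middle, from 33149275 to 33496004. Serpinb6c (chr13:33879816-33905708) and Serpinb6a (chr13:33917918-34002794) close it on the minus strand. All 10 gene spans were the same in GENCODE M21.

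The 3 members with morula RNA are Serpinb9b, Serpinb6c and Serpinb6a. Their reference promoters are shown because the rest of the results turn on these genes, from 250 bases before to 50 bases after the RefSeq start site on GRCm38.p6, 5′ to 3′ on the gene's strand. Capitals mark matches to 8 short motifs searched on both strands. Among core promoter elements these were TATAAA for the box of that name, then the element written CCAAT, and GGGCGG for the GC box. For transcription factors active in early embryos they were GGAATG for the TEAD family, with AGATAA for the GATA family, GCCNNNGGC for the AP-2 family, while CATTGT stood for SOX proteins and ATGCAAAT for the octamer.
Serpinb9b (chr13:33027164-33027463, plus strand): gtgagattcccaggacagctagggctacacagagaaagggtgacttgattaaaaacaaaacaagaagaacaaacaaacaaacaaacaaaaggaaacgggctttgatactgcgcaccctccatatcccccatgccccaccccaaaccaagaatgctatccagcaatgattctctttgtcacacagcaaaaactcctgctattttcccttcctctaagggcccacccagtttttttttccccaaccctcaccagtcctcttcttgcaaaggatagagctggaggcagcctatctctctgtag
Serpinb6c (chr13:33905142-33905441, minus strand): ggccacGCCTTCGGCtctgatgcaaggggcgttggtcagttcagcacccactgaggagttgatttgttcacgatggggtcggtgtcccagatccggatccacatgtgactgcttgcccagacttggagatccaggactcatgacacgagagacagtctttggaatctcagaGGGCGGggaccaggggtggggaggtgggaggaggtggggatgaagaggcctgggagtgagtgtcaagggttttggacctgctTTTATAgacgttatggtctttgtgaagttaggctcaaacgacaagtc
Serpinb6a (chr13:34002745-34003044, minus strand): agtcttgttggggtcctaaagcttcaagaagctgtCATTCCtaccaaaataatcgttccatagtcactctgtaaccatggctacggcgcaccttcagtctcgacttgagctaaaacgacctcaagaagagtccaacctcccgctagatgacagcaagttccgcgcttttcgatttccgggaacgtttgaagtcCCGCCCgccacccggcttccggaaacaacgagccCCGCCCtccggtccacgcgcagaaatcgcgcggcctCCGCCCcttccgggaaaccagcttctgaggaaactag
The window of Serpinb6a held 3 GC boxes and 1 GGAATG, that of Serpinb6c held 1 GC box, 1 TATAAA on the opposite strand just after the start site and 1 GCCNNNGGC (a motif that reads the same on both strands), and that of Serpinb9b held none of the 8. Of all 32851 promoters of that length, 35.7% held a GC box, 14.7% GGAATG, 13.6% TATAAA and 16.6% GCCNNNGGC. GC content was 55.7% for both Serpinb6a and Serpinb6c and 46.7% for Serpinb9b, against a median of 52.7% over all promoters. The RefSeq start of Serpinb6a is that of the deposited gene model and the start of Serpinb9b is 2 bases from it. For Serpinb6c the start lies 517 bases inside the deposited model, and Serpinb6a has another RefSeq start 66711 bases downstream that is not shown.

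The members resemble each other closely enough to matter for counting. Coding sequences of the 3 Serpinb6 genes were 86.3% to 87.9% identical over aligned bases, and those of the 7 Serpinb9 genes 77.1% to 98.7%, with a median of 82.2% over 21 pairs. Between the subfamilies identity was 67.5% to 70.8%. Serpinb9f and Serpinb9g were the closest pair at 98.7%, and Serpinb9d to Serpinb9g were all at least 94.3% identical. Reads that mapped to several places were not counted, and 38.6% of the 150-base windows in Serpinb9f transcripts and 30.9% of those in Serpinb9g also occur in another gene's transcripts, so a low count of these genes is uncertain. No 150-base window of Serpinb6b, Serpinb6c, Serpinb9 or Serpinb9b was found in another gene, and the shares of 50-base windows were 2.92%, 9.92%, 0.378% and 5.38%. For Serpinb6a the shared part was 15.96% of 150-base windows, mainly with Nqo2. That gene lies within the Serpinb6a span on the other strand and shares 762 of its exonic bases, 1110046J04Rik shares 584 and Ripk1 shares 241. Together they cover 29.3% of Serpinb6a exon sequence, where reads counted without strand cannot be told apart.

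**Figure D1:**
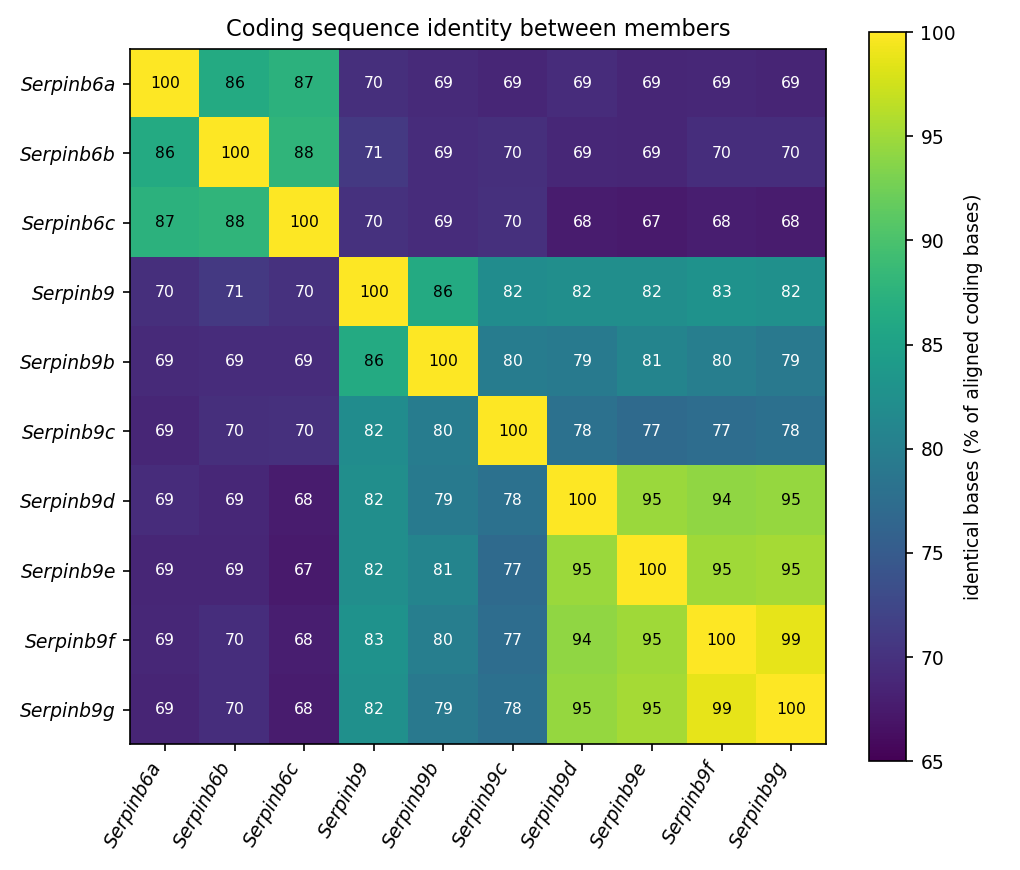
Percent of aligned coding bases that are identical for each pair of the 10 members, from the longest annotated coding sequence of each (GENCODE M21). The 3 Serpinb6 genes and Serpinb9d to Serpinb9g form blocks of high identity, with Serpinb9f and Serpinb9g highest at 98.7%.

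Across the 24 libraries 10538723 to 17807596 counts fell on genes, 10538723 to 13528954 per L2C library and 12690369 to 17807596 per morula library. Levels are given in counts per 1000000 (CPM), scaled within a stage by edgeR's TMM factors, and in length-scaled transcripts per 1000000 (TPM), where counts are first divided by exon length, when genes are compared with each other. As a check of the labels, Ttf1 was at 33.2 ± 4.67 CPM (SD, n = 4) in Ttf1 knockout L2C embryos against 90.6 ± 5.25 in WT, and at 25.4 ± 1.46 against 43.1 ± 1.502 at the morula. Zfp622 was at 73.9 ± 22.8 CPM in its knockout against 198 ± 9.46 in WT at L2C, and at 15.1 ± 6.16 against 52.1 ± 4.84 at the morula. Stage markers went with the labels in WT, since all 13 tested oocyte markers and all 15 tested 2-cell markers were lower at the morula and all 14 morula and blastocyst markers were higher. For Dppa3 in the last list the direction depends on the scaling. Its log2 difference was 0.44 in the 24-library fit, but scaled within a stage it averaged 4872 CPM at L2C and 4389 at the morula. The Ttf1 knockout libraries have lane 1 in the names of their alignment files and the remaining libraries lane 2, so lane and Ttf1 genotype cannot be told apart within a stage. In 3 WT libraries (L2C 4, morula 3 and morula 4) that name holds a further index number.

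In WT embryos the cluster changed over between the stages. At L2C all members were low, with Serpinb6b highest, then Serpinb9 and Serpinb6a, and at the morula the RNA came almost wholly from Serpinb6c, Serpinb9b and Serpinb6a. Serpinb6a averaged 0.496 CPM at L2C and Serpinb9 0.816 CPM, while Serpinb6c and Serpinb9b had 0 counts and 1 count there. Serpinb6b, the granzyme A inhibitor, had 2.28, 2.03, 2.83 and 0.731 CPM in the 4 WT L2C libraries and 0, 0.274, 0.0566 and 0.125 CPM in the 4 WT morula libraries. The stages did not overlap, and the fitted change was a log2 fall of -3.46 (SE 0.84, adjusted p = 0.000502), from 87 counts to 7. Serpinb9, the granzyme B inhibitor, had 0.263, 0.483, 1.46 and 1.06 CPM at L2C and 0.0681, 0.137, 0.509 and 0.251 at the morula. Those ranges overlap, and the fitted log2 difference of -1.10 (SE 0.71) was not called (adjusted p = 0.153).

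Serpinb6a, the cathepsin G inhibitor, had 0, 0.290, 1.37 and 0.325 CPM in WT L2C libraries and 93.5, 95.4, 82.1 and 75.2 CPM in WT morulae. Every morula library was far above every L2C library, with 5416 counts against 22, a 265-fold difference (exact 95% counting interval 175 to 424). Of the 22 counts 15 were in WT L2C library 3, and without that library the difference was 631-fold. Serpinb6c had no count in any WT L2C library and 35.4, 33.9, 29.6 and 30.3 CPM at the morula, which makes it at least 726-fold higher when L2C is set to the 3 counts that a group total of 0 allows. Serpinb9b, the granzyme M inhibitor, had 1 count in the 4 WT L2C libraries and 78.1, 62.4, 49.1 and 73.5 CPM at the morula. Its 4100 counts against 1 give a ratio of 4419 with a 95% counting interval from 793 to 174575. Without WT L2C library 1, which holds that count, it was at least 1100-fold higher. The folds in this paragraph use TMM factors from all 24 libraries, unlike the CPM beside them, which are scaled within a stage. Those factors were 1.20 to 1.24 for WT L2C and 0.79 to 0.84 for WT morula libraries. They make the folds larger than total counts would, so the folds depend on the scaling between stages. Intervals and limits of this kind cover counting error only.

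For all 3 the adjusted p was 1.33e-14 or less, but these genes failed the low-count filter at L2C and passed only through the morula groups. Serpinb6b and Serpinb9 passed only through the L2C groups. Since the members were also chosen on these counts, the p-values between stages are no separate support for a change. The fitted folds of the 3 genes depend on how counts of 0 are handled and are not quoted. Of the 10 members 5 passed the low-count filter of the comparison between stages, and of these 3 were called higher and 1 lower. Over all 18864 genes tested, 37.9% were called higher and 46.1% lower, and nothing is read from the share of members. With scaling by total counts in place of TMM, the median of all genes moved by -0.57 on the log2 scale, the share of higher genes among calls went from 45.1% to 34.9%, and Serpinb9 was called lower (log2 -1.66, adjusted p = 0.0317). The other 4 calls kept their direction.

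**Figure D2:**
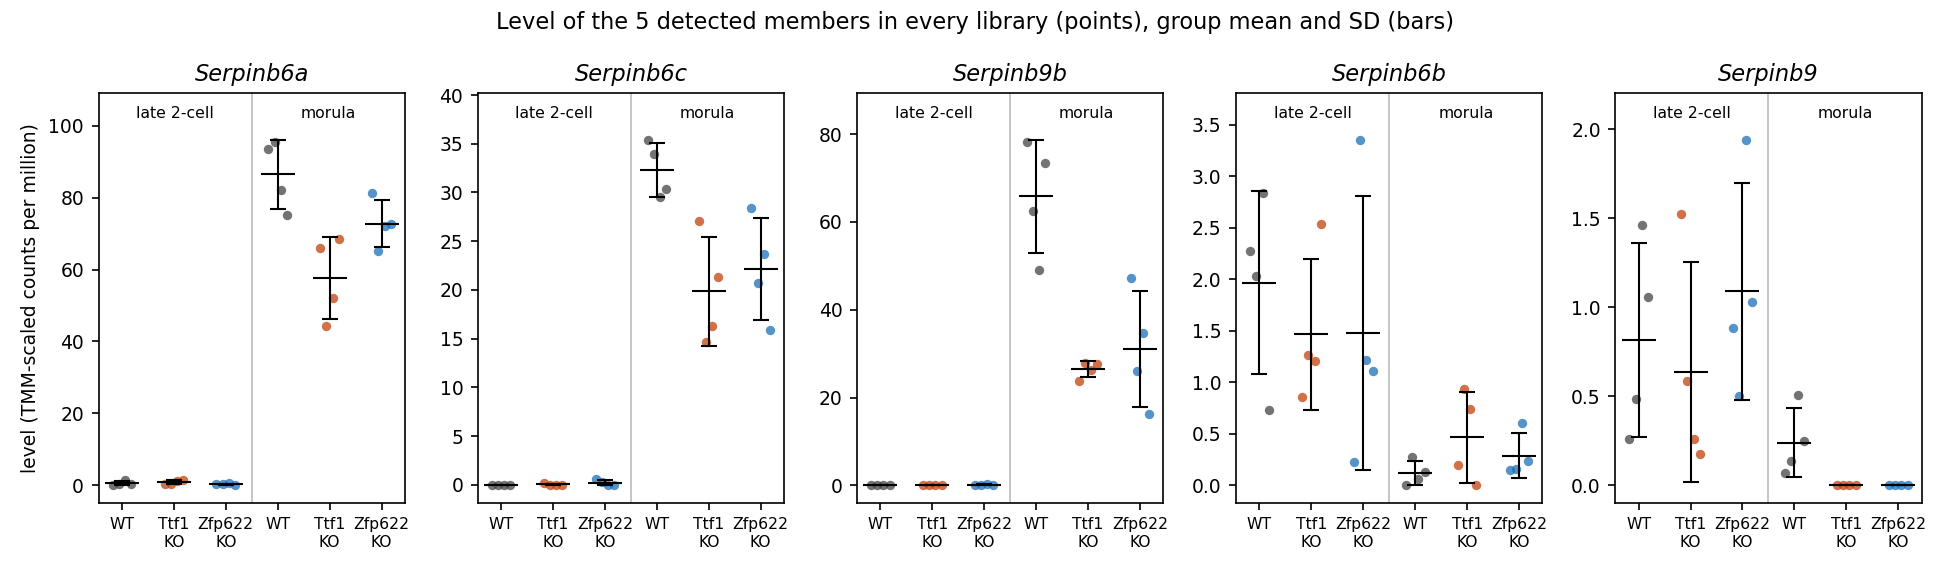
Level in TMM-scaled CPM (vertical axis, a different scale in each panel) of the 5 members with more than a few counts, in each of the 24 libraries (points), with group mean and SD (n = 4). Serpinb6a, Serpinb6c and Serpinb9b are at or below 1.40 CPM in all 12 L2C libraries and between 14.7 and 95.4 CPM in all 12 morula libraries, whereas Serpinb6b and Serpinb9 stay at or below 3.36 CPM throughout.

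The other 5 members gave almost nothing. Serpinb9c had 2 counts in all 24 libraries, in WT L2C libraries 1 and 4, and Serpinb9d had 1 count, in Zfp622 knockout morula library 3. Serpinb9e, Serpinb9f and Serpinb9g had 0 counts in every library, which over all libraries allows up to 0.00942 CPM for each by counting error. These are among the members most alike in sequence. The morula signal was thus not spread over the cluster but came from the third gene of its left end and from the last pair at its right end.

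Per exon length, the order in WT morulae was Serpinb6c at 53.8 ± 5.18 TPM (SD, n = 4), Serpinb9b at 45.4 ± 8.89, Serpinb6a at 37.1 ± 4.53, then Serpinb9 at 0.159 ± 0.126 and Serpinb6b at 0.118 ± 0.124. The first 3 overlapped with their neighbours in this order and so did the last pair, while Serpinb6a was far above Serpinb9 in every library. Serpinb6c ran from 48.7 to 58.8, Serpinb9b from 33.6 to 53.9 and Serpinb6a from 31.9 to 41.6, while Serpinb6c was above Serpinb6a in every library. At L2C the order was Serpinb6b at 2.00 ± 0.922 TPM, Serpinb9 at 0.531 ± 0.353 and Serpinb6a at 0.210 ± 0.256, each again overlapping the next. TPM of Serpinb6a is affected by the exon sequence shared with its neighbours on the other strand, whose part in its level was not tested.

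**Figure D3:**
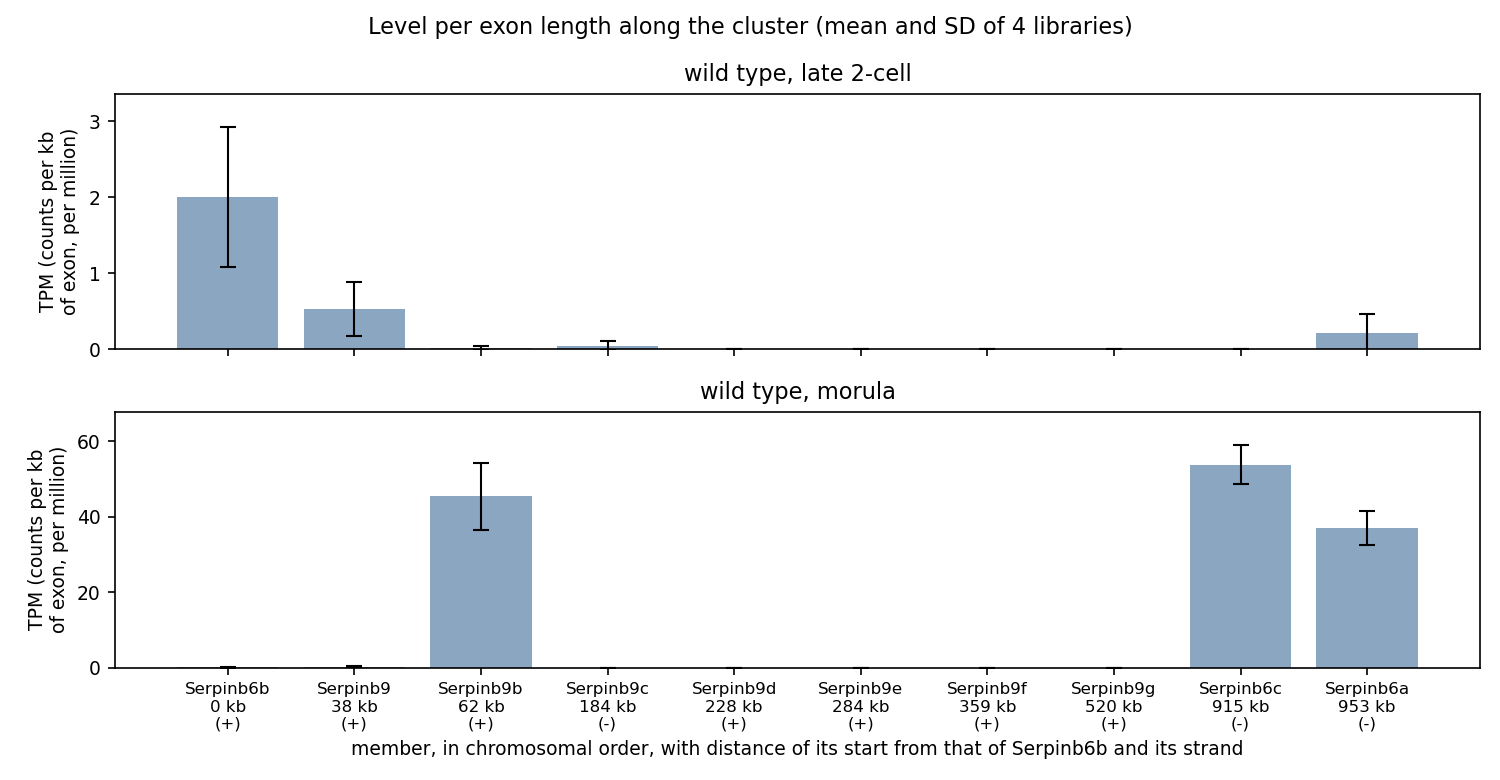
Mean TPM (with SD over 4 libraries) of each member in WT embryos, in chromosomal order from left to right at equal spacing, with the distance of each start from that of Serpinb6b and the strand under its name. At L2C Serpinb6b leads, at 2.00 TPM, and at the morula the signal is on Serpinb9b, Serpinb6c and Serpinb6a.

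At L2C neither knockout differed detectably from WT in any member. Serpinb6b averaged 1.46 ± 0.734 CPM (SD, n = 4) in Ttf1 knockout and 1.47 ± 1.33 in Zfp622 knockout embryos against 1.97 ± 0.890 in WT. Serpinb9 averaged 0.636 ± 0.619 and 1.09 ± 0.609 against 0.816 ± 0.546. All groups overlapped for both genes. Only these 2 members passed the filter, and none was called by edgeR in either comparison or between the knockouts (0 of 2 at unadjusted p under 0.05 and 0 by DESeq2 in each). Over all 16770 genes tested, 1.54% were called for Ttf1, 0.0179% for Zfp622 and 0.0358% between the knockouts. The 95% interval of the log2 difference of Serpinb6b ran from -1.62 to 0.79 for Ttf1 and from -1.62 to 0.77 for Zfp622. Changes within these unadjusted intervals remain compatible with the counts, and the smallest detectable change was not computed. Serpinb6c, absent from WT at this stage, had 8 and 4 counts in Zfp622 knockout libraries 1 and 2 and 2 in Ttf1 knockout library 1, with 0 in the other 5 knockout libraries. Serpinb9b had 0, 1, 4 and 1 counts in Zfp622 knockout libraries and 0 in all Ttf1 knockout libraries.

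At the morula Serpinb9b and Serpinb6c were called lower in both knockouts, and Serpinb6a in Ttf1 knockouts. Serpinb9b differed most. Its WT values, given above, ran from 49.1 to 78.1 CPM, with 23.9, 27.9, 26.3 and 27.7 CPM in morulae of the Ttf1 knockout and 47.3, 25.9, 34.7 and 16.2 CPM in those of the Zfp622 knockout. No knockout library reached the lowest WT library, although Zfp622 knockout library 1 came close to it. Serpinb9b fell to 40.2% of WT in Ttf1 knockouts (log2 -1.31, SE 0.26, adjusted p = 0.00236) and to 47.3% in Zfp622 knockouts (log2 -1.08, SE 0.26, adjusted p = 0.00975).

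Serpinb6c had 27.1, 14.7, 16.4 and 21.4 CPM in morulae of the Ttf1 knockout and 28.4, 20.7, 23.7 and 15.9 CPM in those of the Zfp622 knockout. All 8 libraries were below the lowest WT library at 29.6 CPM. The level was 61.6% of WT in Ttf1 knockouts (log2 -0.70, SE 0.19, adjusted p = 0.00775) and 68.7% in Zfp622 knockouts (log2 -0.54, SE 0.19, adjusted p = 0.0386). The Zfp622 call rested on narrow margins. It was lost without any single one of 6 libraries, with adjusted p of 0.0822, 0.0784 and 0.0535 without WT library 1, 2 or 4 and of 0.0805, 0.0517 and 0.0964 without Zfp622 knockout library 2, 3 or 4. It was also lost with scaling by total counts (0.0611) and without both WT libraries that carry a second index number (0.0885).

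Serpinb6a had 65.9, 44.4, 52.0 and 68.4 CPM in Ttf1 knockout morulae, all below the lowest WT library at 75.2 CPM. It fell to 66.7% of WT there (log2 -0.58, SE 0.12, adjusted p = 0.00163). In Zfp622 knockout morulae it had 81.3, 65.2, 72.1 and 72.6 CPM, where library 1 lay inside the WT range and the other 3 just below it. The level of 84.1% of WT did not pass the test (log2 -0.25, SE 0.12, 95% interval -0.51 to 0.01, adjusted p = 0.143). The WT morula libraries with a second index number, 3 and 4, were the lowest of the 4 for both Serpinb6a and Serpinb6c. Without them the log2 differences in Ttf1 knockouts were -0.72, -0.81 and -1.42 for Serpinb6a, Serpinb6c and Serpinb9b, each still called.

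Serpinb9 went from a trace to none. It had 1, 2, 9 and 4 counts in the WT morula libraries and 0 in all 8 knockout libraries. With each knockout set to the 3 counts a group of 0 allows, it was 5.14-fold lower in Ttf1 and 4.51-fold lower in Zfp622 knockouts. These ratios take the 16 WT counts as exact, so counting error also allows smaller falls. Serpinb9 did not pass the low-count filter. WT library 3, which carries a second index number, holds 9 of the 16 counts, and without it the ratios were 3.13-fold and 2.75-fold. Fitted without that filter Serpinb9 was called in both (adjusted p = 0.00801 and 0.0146), but not without WT library 3 (adjusted p = 0.0610 and 0.0949) or without both second-index WT libraries (adjusted p = 0.206 and 0.283). Serpinb6b had 0, 4, 1 and 2 counts in WT morulae, 3, 13, 11 and 0 in Ttf1 knockouts and 2, 2, 9 and 3 in Zfp622 knockouts, overlapping throughout, and was not called without the filter (adjusted p = 0.0638 and 0.364).

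Thus 3 of the 3 members tested were called lower in Ttf1 knockout morulae and 2 of 3 in Zfp622 knockout morulae. Among all 14865 genes tested, 39.2% were called for Ttf1, with 17.9% lower, and 29.1% for Zfp622, with 13.5% lower. Members were chosen with these contrasts in view, and nothing is read from their share. The 2 comparisons use the same WT libraries. Between the knockouts no member was called by edgeR (0.229% of all genes were) or by DESeq2, with 1 of 3 at unadjusted p under 0.05. That was Serpinb6a, whose level in Ttf1 knockouts was 79.3% of that in Zfp622 knockouts (log2 -0.33, unadjusted 95% interval -0.60 to -0.07, adjusted p = 0.260). For Serpinb9b the interval ran from -0.81 to 0.35 and for Serpinb6c from -0.56 to 0.24.

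The summed level of the 10 members was 137 ± 15.2 TPM (SD, n = 4) in WT morulae, 71.4 ± 13.6 for the Ttf1 knockout and 86.4 ± 20.3 for the Zfp622 knockout. Serpinb9b lost the most within that sum. Its share averaged 33.1% in WT (28.6% to 38.0%), 24.5% in Ttf1 knockouts (18.4% to 30.3%) and 23.1% in Zfp622 knockouts (16.2% to 28.5%). The share of Serpinb6a averaged 27.2%, 32.2% and 35.6% in the same order, and that of Serpinb6c 39.5%, 42.6% and 40.9%. In L2C embryos Serpinb6b held on average 69.8% of a sum of only 2.81 ± 1.18 TPM in WT, 63.2% in Ttf1 knockouts and 47.8% in Zfp622 knockouts, with wide swings between libraries.

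**Figure D4:**
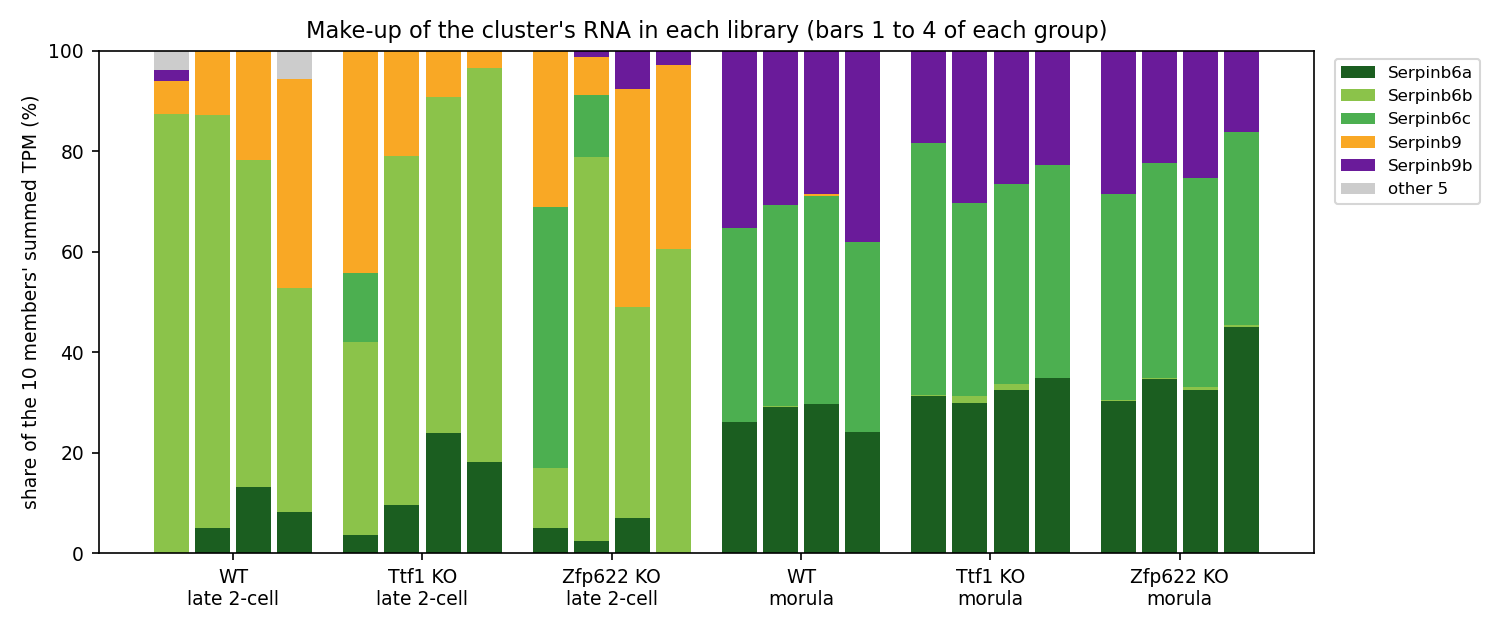
Share of the 10 members' summed TPM taken by each member (percent, vertical axis) in each library, 4 bars a group in replicate order. Serpinb6b and Serpinb9 take most of the small L2C sum on average (Serpinb6c takes 52.0% in Zfp622 knockout L2C library 1), and Serpinb6a, Serpinb6c and Serpinb9b nearly all of the morula sum, with a smaller Serpinb9b share in both knockouts than the WT mean of 33.1%.

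Whether a knockout effect differed between the stages was tested for the 5 members in the 24-library fit. For Ttf1 no member was called by edgeR, against 21.2% of all genes, with 2 of 5 at unadjusted p under 0.05 and 1 called by DESeq2. For Zfp622, Serpinb6c (adjusted p = 0.0410) and Serpinb9 (adjusted p = 0.0403) were called, both with a lower effect at the morula than at L2C, against 10.7% of all genes called and 4.21% called lower. Both calls rest on groups without any count, WT L2C embryos for Serpinb6c and Zfp622 knockout morulae for Serpinb9. Without the WT libraries that carry a second index number neither was called (adjusted p = 0.134 and 0.260). The Serpinb6c call was also lost without any single WT library of either stage, Zfp622 knockout L2C library 1 or 2 or Zfp622 knockout morula library 2 or 4 (adjusted p from 0.0534 to 0.158). The Serpinb9 call was lost without WT L2C library 1 or 2, WT morula library 3 or 4, Zfp622 knockout L2C library 3 or any single Zfp622 knockout morula library (adjusted p from 0.0526 to 0.102). Serpinb9b, Serpinb6a and Serpinb6b were not called for Zfp622 (adjusted p = 0.209, 0.617 and 0.381).

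In bulk libraries a lower level of a gene can come from fewer cells that express it or from less RNA in each, and these cannot be told apart. Summed levels of several marker lists also differed between the groups. The summed level of 14 oocyte markers was 16.04 to 21.1 CPM in WT morulae, 49.3 to 58.8 for the Ttf1 knockout and 41.8 to 65.7 for the Zfp622 knockout, with 8 of 11 tested markers called higher in each knockout and none of the 14 at 0 in any group. The 15 2-cell markers in the files summed to 52.6 to 86.0 CPM in WT, 91.1 to 322 for the Ttf1 knockout and 106.5 to 195 for the Zfp622 knockout, with 6 and 5 of 14 called higher. Of 14 morula and blastocyst markers, 6 were called lower and 2 higher for Ttf1, and 5 lower and 2 higher for Zfp622. Their sum was nonetheless higher in knockouts, led by Dppa3. It was 5991 to 6285 CPM in WT, 6825 to 7858 for the Ttf1 knockout and 7123 to 8294 for the Zfp622 knockout. The part of these marker lists in the lower member levels was not tested. Cytotoxic lymphocytes are the cells for which granzyme inhibitors are best known. Of 11 cytotoxic lymphocyte markers 7 were at 0 in WT morulae and 4 in each knockout. The list summed to 1.36 to 1.65 CPM in WT, 1.57 to 4.79 for the Ttf1 knockout and 3.02 to 8.18 for the Zfp622 knockout. It was led by Cd8a, with Gzmb at 0 throughout. Only 1 marker of that list was tested, and it was called higher for Zfp622 but not for Ttf1. Macrophage and blood markers summed to 10.0 to 13.9, 22.0 to 36.9 and 27.6 to 37.4 CPM in the same order, led by Cd68, and both tested, Cd68 and Hba-a1, were called higher in both knockouts. Sperm and spermatid markers summed to 15.3 to 21.2, 17.6 to 23.9 and 23.3 to 29.0 CPM, led by Odf2, with 2 of 3 tested called higher for Ttf1 and 3 of 3 for Zfp622. Of 19 placental trophoblast markers 11 were at 0 in WT morulae and 8 in each knockout, and most of the 80.6 to 133 CPM they summed to was Hand1.

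Of 52 annotated neighbours within 500 kb, 6 passed the filter at the morula, and Nqo2 and Tubb2a were called lower in both knockouts. Nqo2, a quinone reductase whose exons overlap Serpinb6a, had 28.0, 27.5, 25.9 and 22.0 CPM in WT, 22.6, 18.5, 18.3 and 22.9 for the Ttf1 knockout and 19.2, 15.7, 14.9 and 14.2 for the Zfp622 knockout. Its fall was larger in the Zfp622 fit (log2 -0.69, SE 0.13, adjusted p = 0.000848) than in the Ttf1 fit (log2 -0.33, SE 0.13, adjusted p = 0.0451), the opposite order to Serpinb6a, but Nqo2 was not called between the knockouts (adjusted p = 0.228). The Ttf1 call of Nqo2 was lost without any single one of WT libraries 1, 2 and 3 or Ttf1 knockout libraries 2 and 3 (adjusted p from 0.0657 to 0.120). Tubb2a, a tubulin gene, fell in both (log2 -1.02, SE 0.35, adjusted p = 0.0315 for Ttf1, and log2 -1.147, SE 0.35, adjusted p = 0.0260 for Zfp622). Its Ttf1 call was lost without WT library 1 or 2 or Ttf1 knockout library 1, 2 or 3 (adjusted p from 0.0607 to 0.0859), and its Zfp622 call without WT library 1 or 2 or Zfp622 knockout library 2 or 4 (adjusted p from 0.0500 to 0.0678) or without the second-index WT libraries (0.0514). With the replicate number as a block neither call held (adjusted p = 0.0766 and 0.0616). Ripk1, the cell death kinase that overlaps the other end of Serpinb6a, Wrnip1, Psmg4 and Serpinb1c were not called in either knockout. In WT the same region moved in both directions between the stages, with Nqo2 and Psmg4 called higher at the morula and 5 genes lower, among them Slc22a23, Gm48073 and Ripk1. Wrnip1 was called higher by a narrow margin (log2 0.50, adjusted p = 0.0375), a call that held in 5 of 16 alternatives. It turned to -0.078 with scaling by total counts and was not called with DESeq2 (adjusted p = 0.0735) or without any single one of WT L2C libraries 2 and 3 and WT morula libraries 1, 2 and 3 (adjusted p from 0.0519 to 0.160).

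Other clade B serpins, from lists that are no part of the cluster choice, were lower at the WT morula. Of 18 such genes 3 passed the filter, Serpinb1c, Serpinb3a and Serpinb12. All 3 were called lower, against 46.1% of all 18864 genes tested. Serpinb3a and Serpinb12 failed the filter at the morula and passed only through the L2C groups. Their calls are thus no separate support for a change. The summed level of the 18 genes was 11.4 to 21.2 CPM in WT L2C and 1.17 to 2.13 CPM in WT morula libraries. At the morula nearly all clade B serpin RNA thus came from the 3 members. Serpinb3a had 266 counts in WT L2C embryos and 0 in all 12 morula libraries. Of the 3 tested in knockouts at L2C and the 1 tested at the morula (Serpinb1c), none was called by edgeR. Among 35 serpins of other clades, Serpine2, a secreted inhibitor of thrombin and plasminogen activators, was higher in both knockout morulae, at 48.0 ± 12.3 and 38.7 ± 12.99 CPM (SD, n = 4) against 18.1 ± 6.05 in WT (log2 1.41, adjusted p = 0.00370, and log2 1.09, adjusted p = 0.0195). The Zfp622 call of Serpine2 was lost without WT library 4 or Zfp622 knockout library 1 or 4 (adjusted p of 0.0562, 0.0503 and 0.0658), without the second-index WT libraries (0.113), without the low-count filter (0.0671) and with the replicate block (0.0581).

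The proteases that these serpins are known to block were mostly missing. Granzyme B had 0 counts in all 24 libraries, and cathepsin G had 2 counts in all. Of 11 granzyme and perforin genes only Gzmm passed the filter. Gzmm encodes granzyme M, the target of Serpinb9b, and had 0.987 ± 0.593 CPM (SD, n = 4) in WT L2C and 3.56 ± 0.584 CPM in WT morula embryos, a called rise. It was not called in Ttf1 or Zfp622 knockout morulae (3.03 ± 0.888 and 4.43 ± 1.10 CPM). Lysosomal cathepsins were abundant, and of 8 tested at the morula Ctsh was lower in both knockouts (log2 -0.44, adjusted p = 0.00400, and -0.48, adjusted p = 0.00375). Ctsl was higher for Ttf1 (log2 0.47, adjusted p = 0.00727) and Ctsb for Zfp622 (log2 0.61, adjusted p = 0.000505). Ctsa was lower for Ttf1 (log2 -0.21, adjusted p = 0.0264), a call lost without the second-index WT libraries (adjusted p = 0.191) and without Ttf1 knockout library 2 (adjusted p = 0.0510).

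The genes whose levels followed the 3 morula members most closely over the 24 libraries were of many kinds. Likeness was Pearson's r of log2 CPM, given as a description, and it is set mostly by the step between the stages, since 2102 of 14347 named genes reached 0.95 for Serpinb6a, 2275 for Serpinb6c and 2510 for Serpinb9b. Nearest to Serpinb6a were Rabggta (r = 0.991) and Khdc3 (0.989), a component of the maternal subcortical complex. Khdc3 averaged 350 CPM in WT, 217 for the Ttf1 and 252 for the Zfp622 knockout in morulae. Nearest to Serpinb9b were Slco2a1, a prostaglandin transporter (0.996), Psmc3, a proteasome subunit (0.996), and Snx5 (0.995), and nearest to Serpinb6c were Babam2 (0.992), Mylpf (0.992) and Capza1 (0.992). Slco2a1 averaged 15.4 CPM in WT, 10.4 for the Ttf1 and 9.79 for the Zfp622 knockout in morulae, and at most 0.0606 CPM in any L2C group.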

How the data were processed

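Poly(A) RNA of 24 embryo pools was measured. Reads were aligned with HISAT2 2.2.1 and counted with featureCounts 2.0.1, per the submitters' processing notes and the file headers. Per the file headers the deposited values are raw counts per Ensembl 99 gene on GRCm38, with no strand option and without reads mapping to several places. Totals of 10538723 to 17807596 counts limit precision for members with few counts.

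From these counts, edgeR 4.0.16 (R 4.3.3; filterByExpr, TMM, robust quasi-likelihood fits) compared genotypes within a stage over 12 libraries, and stages and interactions over 24, with Benjamini-Hochberg adjustment over all genes tested and a threshold of 0.05. CPM, TPM and log2 values (prior count 2) were computed here. Alternatives included DESeq2 1.42.0, other scalings, no filter, a replicate block and leaving out libraries. Only the Ttf1 comparison with WT within each stage was tested on simulated data, from genes with more than a few counts in WT. The fit over 24 libraries, the interactions and genes with few counts were not tested in this way.

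The members and gene lists were chosen with earlier results of these data known. All members are described; other genes are named from the lists where called, and likeness names genes among the 3 highest r. A few named genes are not reported here. Groups come from sample titles, since some Zfp622 knockout genotype labels count upward in number. Same-numbered libraries did not deviate together (60 pairs, r from -0.386 to 0.223), so no pairing was assumed.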

Additional observations from a re-analysis of the deposited data

Results flagged for a closer look

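An interaction term over 24 libraries called the Zfp622 knockout effect on Serpinb6c different between the stages (edgeR, adjusted p = 0.041). Serpinb6c had 12 counts in Zfp622 knockout L2C embryos, 8 and 4 of them in libraries 1 and 2, and 0 in WT, against 1200 and 2022 counts at the morula, and the call was lost in 13 of 23 alternatives. The effect on Serpinb9 was called in the same test (adjusted p = 0.0403), with 55 counts in Zfp622 knockout and 37 in WT L2C embryos and 0 against 16 at the morula, and was lost in 10 of 22. Both calls rest on few counts. Not every set of 4 libraries of a member was checked for a library apart from the others. Of the 24 sets checked none was flagged. Single libraries can still hold most of a low total, such as 15 of 22 Serpinb6a counts in WT L2C library 3 and 9 of 16 Serpinb9 counts in WT morula library 3.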

How the results depend on the processing

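The calls of Serpinb6a, Serpinb6c and Serpinb9b in Ttf1 knockout morulae and of Serpinb9b in Zfp622 knockout morulae held in all 16 alternatives. The count of members called in Zfp622 knockout morulae was 2 and became 1 with total counts or without second-index WT libraries, 4 without the low-count filter, and 1 to 2 when each library was left out. Between the knockouts at the morula it was 0 and became 1 without the filter. For the Ttf1 interaction it was 0 and became 1 with DESeq2, with DESeq2's size factors and with total counts, 3 without the filter, and 0 to 2 when each library was left out. For the Zfp622 interaction it was 2 and became 0 without second-index WT libraries and 0 to 2 when each library was left out.

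Log2 differences that changed sign are given with their range over left-out libraries, and the cause was not tested. Serpinb9 at L2C ran from -1.23 to 0.044 for Ttf1 (positive without WT library 3) and from -0.013 to 0.83 for Zfp622 (negative without Zfp622 knockout library 3). Serpinb6b between the knockouts at L2C ran from -0.39 to 0.79, negative without Ttf1 knockout library 4 (-0.39) or Zfp622 knockout library 1, 3 or 4 (-0.37, -0.073 and -0.10). Serpinb9b between the knockouts at the morula ran from -0.45 to 0.043, positive without Zfp622 knockout library 1. The Serpinb9b Ttf1 interaction ran from -1.34 (without WT L2C library 1) to 0.52 and was -0.61 with DESeq2. The Serpinb6a Zfp622 interaction ran from -0.47 (without WT L2C library 3) to 1.29. The Wrnip1 stage difference was -0.078 with total counts.

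The replicate block also ended the Tubb2a calls in both knockouts and the Serpine2 call for Zfp622, as given above. With it, members called stayed at 3 and 2 for the morula comparisons, 4 between stages and 0 and 2 for the interactions, while calls over all genes went from 5833 to 5532 for Ttf1 morulae, from 4321 to 4037 for Zfp622 morulae, from 258 to 174 for Ttf1 at L2C and from 34 to 15 between the knockouts at the morula. With total counts the share of higher calls went from 48.1% to 59.5% for Ttf1 at L2C, from 55.9% to 40.7% between the knockouts at the morula, and from 50% to 75% between them at L2C. Left-out values of the fold between stages, of the Serpinb9 ratios at the morula and of Serpinb9 without the filter were chosen after seeing the data.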
